A study of Homo sapiens with 3 samples.

Results

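The 8 genes ADRA2A, GNAI1, RASGRP1, SGK1, PLK2, KCTD6, RBM24 and ZSWIM6 were taken from 3 Affymetrix HG-U133 Plus 2 arrays of T47D cells because the estradiol array differed from both other arrays for each of them. T47D cells are human breast cancer cells that make estrogen receptor α. The arrays held RNA of cells given 1 µM estradiol, of cells given 1 µM ERα17p, a synthetic peptide copied from a stretch of the receptor, and of cells given 0.1% ethanol as vehicle, all taken 3 h after the addition. All cells had first spent 4 h in medium with 10% charcoal-stripped serum, which removes most steroid hormone, and the labels give an ethanol share for the vehicle cells only. The series has 1 array per group, so no value has an error between cultures, and no test was run.

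The genes were selected on the measured values. The mean over the probe sets of a gene had to lie at least 2-fold, or 1 on the log2 scale, above both other arrays or below both. Of 19775 genes measured by probe sets with a single gene symbol, 12 met this rule, or 0.0607%, with 9 above, or 0.0455%, and 3 below, or 0.0152%, and the 8 genes are among those 12. The remaining 4 were CXCL12, KCNK5 and MYC, which were higher, and AMIGO2, which was lower. The differences of the estradiol array are therefore a description of what was selected. With quantile normalization of the arrays the same rule gave 25 genes above and 41 below, still with all 8 genes among them. Without it, the rule applied to the ERα17p array in place of the estradiol array gave 9 genes, or 0.0455%. Applied to the vehicle array, it gave 475, or 2.4%.

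Estradiol acts mainly by binding estrogen receptors, which then attach to DNA and recruit cofactors, and within hours it changes transcripts both directly and through other signals. Several of the 8 genes act in signalling downstream of membrane receptors. ADRA2A encodes a receptor for adrenaline and noradrenaline, and GNAI1 an inhibitory G protein α subunit of the kind through which that receptor lowers cyclic AMP. RASGRP1 switches on Ras when diacylglycerol and calcium are raised, SGK1 is a kinase known as a target of glucocorticoids, and PLK2 is a polo-like kinase made early after serum addition. KCTD6 is an adaptor of CUL3 ubiquitin ligases, RBM24 binds RNA and is known for its part in muscle splicing, and ZSWIM6 has a SWIM zinc finger. RBM24 is the only one of the 8 classed here as RNA-binding.

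The estradiol array was the high one for 6 genes and the low one for GNAI1 and PLK2. Over the 6 higher genes the estradiol minus vehicle difference lay between 1.47 and 1.99 on the log2 scale, with a median of 1.78, and estradiol minus ERα17p between 1.03 and 2.41, with a median of 1.60. For GNAI1 and PLK2 the differences lay between −1.17 and −1.06 against the vehicle and between −1.10 and −1.05 against ERα17p. ERα17p minus vehicle, which the rule did not use by itself but which shares both of its arrays with it, lay between −0.42 and 0.62 over the 8 genes, and 1 of the 8, KCTD6, was at least 1.5-fold different, beside 15.6% of all genes, a share near that of the 8. By size, 0 of the 8 genes were 2-fold different between ERα17p and vehicle, against 3.77% of all genes, and with arrays scaled to a common SD or quantile-normalized 2 were, ADRA2A and RASGRP1.

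**Figure D1:**
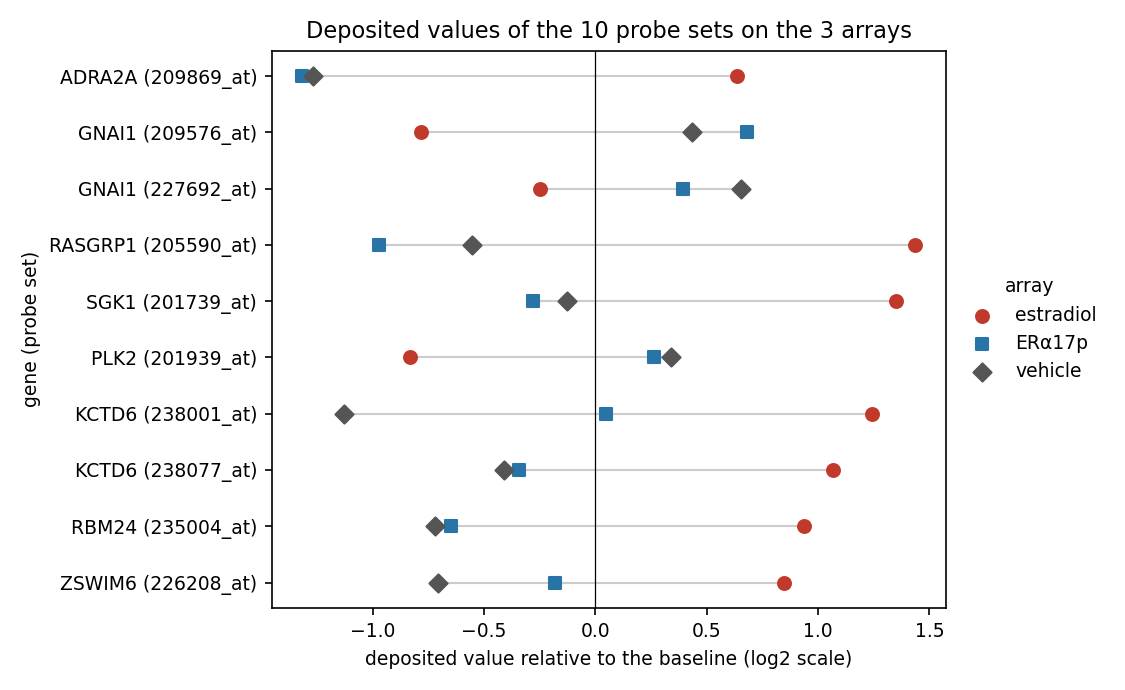
Deposited values of the 10 probe sets of the 8 genes, with the value relative to its baseline on the horizontal log2 axis and 1 probe set per row. Circles stand for the estradiol array, squares for the ERα17p array and diamonds for the vehicle array. The estradiol point lies at one end of every row, on the right for ADRA2A, RASGRP1, SGK1, KCTD6, RBM24 and ZSWIM6 and on the left for GNAI1 and PLK2. In the upper KCTD6 row, with 1.24 for estradiol, 0.048 for ERα17p and −1.13 for vehicle, the ERα17p point lies near the middle.

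How often genes passed 2-fold differed greatly between the comparisons. At least 2-fold higher on the estradiol array were 310 genes against the vehicle array, or 1.57%, and 17 genes against the ERα17p array, or 0.086%. At least 2-fold lower were 323 genes, or 1.63%, and 12 genes, or 0.0607%. Of the 17 genes higher than on the ERα17p array the 6 higher genes of the set took ranks 2 to 17, and of the 12 lower genes PLK2 and GNAI1 took ranks 9 and 10.

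The vehicle array stood apart from the other arrays. The SD over probe sets was 0.158 for estradiol and 0.166 for ERα17p, against 0.434 for vehicle. The 18S ribosomal control probe sets were higher by 1.87 ± 0.34 (SD, n = 3 probe sets) in estradiol minus vehicle and by 0.12 ± 0.11 in estradiol minus ERα17p. The 3′ less 5′ difference of ACTB was −0.81 in estradiol minus vehicle and −0.12 in estradiol minus ERα17p. Their part in the estradiol minus vehicle differences was not tested. All values are relative to an unstated baseline for each probe set. Whether T47D markers or the 8 transcripts were present above background could therefore not be checked, and in bulk RNA a change in the share of cells with a transcript and a change of RNA per cell cannot be told apart.

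**Figure D2:**
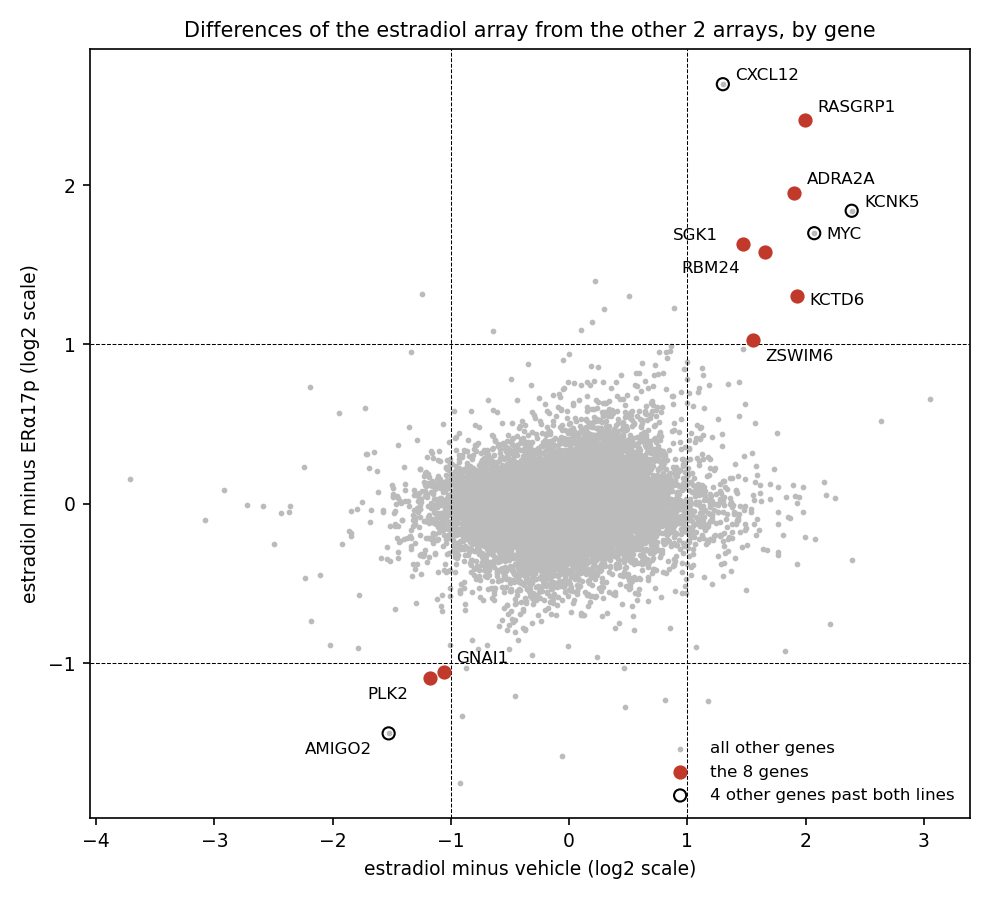
Each grey point is 1 of 19775 genes, with estradiol minus vehicle on the horizontal and estradiol minus ERα17p on the vertical log2 axis. Dashed lines mark 2-fold. Red points are the 8 genes and open circles the 4 other genes past both lines, and the cloud of all genes is wider along the vehicle axis (SD 0.43) than along the ERα17p axis (SD 0.197).

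Promoters were read to see what the 8 genes share beyond the rule. RefSeq windows on GRCh38.p14, from 250 bases before to 50 after an annotated start, were found for all 8 genes, 11 windows in all, with 3 for SGK1 and 2 for GNAI1. The 5 windows shown are all those with the core of the estrogen or the glucocorticoid response element, and that of ADRA2A, with the core of the cyclic AMP response element. The PLK2 window, which also holds the cyclic AMP core, is not shown. A core is one arm of the full estrogen or glucocorticoid element, and the first 5 bases of the full cyclic AMP element. Capitals mark these cores on either strand. The estrogen core is TGACC, the glucocorticoid core is written AGAACA and that of the cyclic AMP element is TGACG, and a core on the opposite strand appears as its reverse complement. The windows are KCTD6 at chr3:58491846-58492145 (plus strand), RBM24 at chr6:17281814-17282113 (plus strand), ZSWIM6 at chr5:61332008-61332307 (plus strand), the second SGK1 window at chr6:134177812-134178111 (minus strand) and ADRA2A at chr10:111076779-111077078 (plus strand), each written 5′ to 3′ on its gene's strand.
KCTD6: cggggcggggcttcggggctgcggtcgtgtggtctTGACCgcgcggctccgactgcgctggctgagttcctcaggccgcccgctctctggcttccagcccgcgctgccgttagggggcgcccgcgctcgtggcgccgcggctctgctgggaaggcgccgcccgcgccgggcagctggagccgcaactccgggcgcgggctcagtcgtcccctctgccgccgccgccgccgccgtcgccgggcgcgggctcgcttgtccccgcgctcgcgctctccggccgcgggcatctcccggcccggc
RBM24: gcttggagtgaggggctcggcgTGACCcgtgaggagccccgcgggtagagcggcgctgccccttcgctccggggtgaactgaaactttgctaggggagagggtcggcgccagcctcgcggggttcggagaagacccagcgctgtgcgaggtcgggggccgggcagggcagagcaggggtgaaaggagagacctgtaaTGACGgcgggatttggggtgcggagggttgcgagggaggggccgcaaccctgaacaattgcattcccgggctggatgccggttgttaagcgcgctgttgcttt
ZSWIM6: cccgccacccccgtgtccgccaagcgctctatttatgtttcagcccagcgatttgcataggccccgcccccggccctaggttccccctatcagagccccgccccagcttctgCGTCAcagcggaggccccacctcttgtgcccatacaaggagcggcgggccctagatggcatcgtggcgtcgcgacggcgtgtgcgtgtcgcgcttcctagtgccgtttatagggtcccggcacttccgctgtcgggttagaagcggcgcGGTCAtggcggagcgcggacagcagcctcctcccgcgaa
SGK1, second window: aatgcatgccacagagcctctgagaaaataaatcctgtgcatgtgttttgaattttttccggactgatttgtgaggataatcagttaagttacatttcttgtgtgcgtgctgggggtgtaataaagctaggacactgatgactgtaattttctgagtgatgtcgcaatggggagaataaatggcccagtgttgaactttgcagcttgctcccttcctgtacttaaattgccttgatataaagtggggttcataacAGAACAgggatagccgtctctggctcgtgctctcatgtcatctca
ADRA2A: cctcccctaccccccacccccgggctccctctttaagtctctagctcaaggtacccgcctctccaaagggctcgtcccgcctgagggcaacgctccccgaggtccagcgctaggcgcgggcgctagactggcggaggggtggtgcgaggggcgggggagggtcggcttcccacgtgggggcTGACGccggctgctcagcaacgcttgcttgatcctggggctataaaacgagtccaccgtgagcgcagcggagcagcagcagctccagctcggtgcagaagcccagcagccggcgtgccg

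A full estrogen response element, GGTCANNNTGACC, was in 0 of the 11 windows and in 0.057% of all 35116 windows. Its core, which is part of the full element, was in 3 windows, those of KCTD6, RBM24 and ZSWIM6, while 37.4% of all windows hold it. It began at position −215 from the start in KCTD6, at −228 in RBM24 and at 12 in ZSWIM6, where −1 is the last base before the start. The glucocorticoid core was in 1 window, the second of SGK1 at position 6, and in 14.8% of all windows, and the full element, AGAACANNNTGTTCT, which holds that core, in 0 of 11 and 0.00285%. The cyclic AMP core was in 4 windows, of ADRA2A, PLK2, RBM24 and ZSWIM6, against 24.6% of all windows. The full cyclic AMP element, TGACGTCA, which holds that core, was in 0 of 11 and 1.85%.

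Among general promoter motifs, the SP1 GC box, GGGCGG, was in 6 of the 11 windows and in 45% of all, with 6 copies in the third SGK1 window. The TATA box, TATAAA, was in 5 windows of 3 genes, ADRA2A, SGK1 and ZSWIM6, and in 11.5% of all. The ADRA2A match began at position −29 and that of the second SGK1 window at −15, both on the strand of the gene. The matches of the first SGK1 window at −96, of the third SGK1 window at −27 and of ZSWIM6 at −33 were on the opposite strand. An AP-1 site, TGANTCA, was in 0 of 11 windows and 7.71% of all, and the E-box, CANNTG, in 8 windows and 68.7%. All motifs were searched on both strands. GC content had a median of 69.3% over the 11 windows, from 38% in the first SGK1 window to 80% in KCTD6, and 58.7% over all windows. It lay above the median of all windows in 8 of the 11, and below it in the first and second SGK1 windows, at 38% and 43%, and in the second GNAI1 window, at 55.7%. A match here describes these letters and not a bound site, and windows of 1 gene share that gene.

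**Figure D3:**
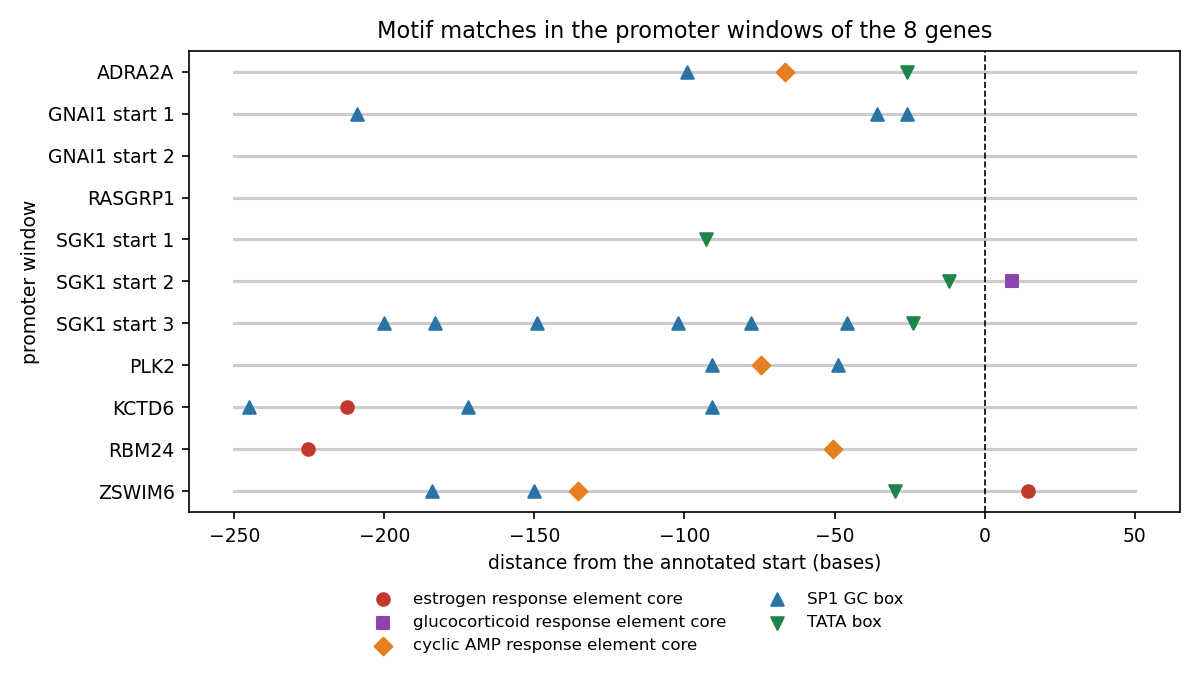
Motif matches in the 11 promoter windows, 1 row per annotated start, by distance in bases from that start (dashed line). Red circles are estrogen cores, in KCTD6, RBM24 and ZSWIM6, orange diamonds cyclic AMP cores, blue triangles GC boxes, green triangles TATA boxes and the purple square the glucocorticoid core of SGK1. The E-box is not drawn.

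ADRA2A, the α2A-adrenergic receptor, had 1 probe set. It stood at 0.64 on the estradiol array, −1.32 on the ERα17p array and −1.27 on the vehicle array. The ERα17p and vehicle values lay together and the estradiol value far above them. The differences were 1.90 for estradiol minus vehicle, a 3.74-fold higher signal, 1.95 for estradiol minus ERα17p, 3.87-fold, and −0.049 for ERα17p minus vehicle. On the ERα17p array its value was the 8th lowest of 54613 probe sets relative to the baseline, whereas on the estradiol array it was the 86th highest. On the vehicle array, which had the larger SD, its similar value was the 683rd lowest. Arrays scaled to a common SD put ADRA2A at −1.26 in ERα17p minus vehicle, and quantile normalization at −1.10. Both scalings change the distance from the baseline by a different amount on each array, so they move nearly equal values far from it apart. How close the ERα17p and vehicle values of this gene were thus depended on the scaling. Whether such scaling suits values relative to a baseline was not tested.

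Of 8 other adrenergic receptor genes 7 were measured, and 0 met the 2-fold rule against both arrays. Their median was 0.041 in estradiol minus vehicle and 0.096 in estradiol minus ERα17p, beside medians over all genes of −0.0043 and −0.0062. ADRA2C, the related α2C receptor, was the 1 member at least 1.5-fold different from the vehicle, at −0.59, and stood at −0.11 against ERα17p. ADRB1, the β1 receptor, stood at 0.14 and 0.15. Among all genes, 8.42% were at least 1.5-fold lower and 6.48% at least 1.5-fold higher in estradiol minus vehicle.

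GNAI1, the inhibitory α subunit, was measured by 2 probe sets that differed in size. The probe set 209576_at stood at −0.78 on the estradiol array, 0.68 on the ERα17p array and 0.44 on the vehicle array. The probe set 227692_at stood at −0.25, 0.39 and 0.66 on the estradiol, ERα17p and vehicle arrays. Estradiol was the lowest array in both, but only the first probe set was 2-fold lower than both others. Over the 2 probe sets the difference was −1.06 ± 0.22 (SD, n = 2 probe sets) for estradiol minus vehicle and −1.05 ± 0.58 for estradiol minus ERα17p, just past 2-fold. ERα17p minus vehicle was −0.0086 ± 0.36, with the probe sets on opposite sides of 0, at 0.24 and −0.26. With arrays scaled to a common SD or quantile-normalized, ERα17p minus vehicle was 0.50 for GNAI1. The second probe set had −0.90 against the vehicle and −0.64 against ERα17p, which made GNAI1 the only one of the 8 genes with a probe set outside the rule, since 9 of the 10 probe sets met it. Among the 41091 single-gene probe sets, 30 did so, or 0.073%.

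The other 15 G protein α subunit genes were all measured, and 0 met the rule. Against the vehicle 2 were at least 1.5-fold higher and 0 lower, beside 6.48% and 8.42% of all genes. GNAQ, which activates phospholipase C, stood at 0.78 ± 0.67 (SD, n = 5 probe sets) and GNAI3, a close relative of GNAI1, at 0.63 ± 0.62 (SD, n = 3), and against ERα17p these stood at −0.31 and −0.01. The spread over the probe sets of GNAI3 was nearly as large as its difference from the vehicle. Of 26 RGS proteins and other modulators of inhibitory subunits 24 were measured, with 2 at least 1.5-fold lower than on the vehicle array and 0 higher. The share that was lower lay near the 8.42% of all genes. RGS16 and RGS2, which speed the switching-off of G proteins, stood at −0.80 ± 0.82 (SD, n = 3 probe sets) and −0.61 (1 probe set), the RGS16 SD being larger than its difference, and at −0.30 and −0.23 against ERα17p. For cyclic AMP synthesis, breakdown and protein kinase A, 26 of 27 genes were measured. Against the vehicle 1 was at least 1.5-fold higher and 0 lower, beside 6.48% and 8.42% of all genes. The higher gene was PRKACB, a catalytic kinase subunit, at 1.31 ± 0.48 (SD, n = 3). It stood at 1.17 in ERα17p minus vehicle and at 0.14 in estradiol minus ERα17p. ADCY4, an adenylyl cyclase that makes cyclic AMP, stood at −0.64 in estradiol minus ERα17p and −0.52 in estradiol minus vehicle.

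RASGRP1, the Ras activator, showed the largest difference from ERα17p of the 8 genes. Its 1 probe set stood at 1.44 on the estradiol array, −0.97 on the ERα17p array and −0.56 on the vehicle array. This was the 2nd highest value of the 54613 on the estradiol array and the 18th lowest on the ERα17p array. On the vehicle array, with its larger SD, it was the 3733rd lowest. Estradiol minus ERα17p was 2.41, a 5.31-fold higher signal and rank 2 of 19775 genes, and estradiol minus vehicle was 1.99, 3.98-fold. The ERα17p array lay below the vehicle array, at −0.42. With arrays scaled to a common SD this difference was −1.15, and with quantile normalization −1.16. RASGRP1 and ADRA2A were the 2 genes of the 8 that passed 3-fold against both other arrays.

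Among 33 genes of the Ras cycle and the diacylglycerol kinases, which use up the lipid that activates RASGRP1, 27 were measured and 0 met the rule. Against the vehicle 2 were at least 1.5-fold higher and 3 lower, beside 6.48% and 8.42% of all genes. Against ERα17p 0 were 1.5-fold different, beside 0.607% of all genes higher and 0.521% lower. RRAS2, a Ras relative, stood at 0.83 ± 0.60 (SD, n = 3 probe sets) and RASA2, a Ras inactivator, at 0.70 ± 0.48 (SD, n = 3) against the vehicle, and at −0.14 and −0.041 against ERα17p. DGKD, a diacylglycerol kinase, stood at −0.63 against the vehicle and −0.19 against ERα17p.

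SGK1, the serum and glucocorticoid regulated kinase, had 1 probe set, at 1.35 on the estradiol array, −0.28 on the ERα17p array and −0.13 on the vehicle array. The ERα17p and vehicle values lay close together, and the estradiol value was the 5th highest of its array. Estradiol minus vehicle was 1.47, a 2.78-fold higher signal, estradiol minus ERα17p 1.63, 3.09-fold, and ERα17p minus vehicle −0.15.

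Of 19 listed SGK relatives, activators and substrates 18 were measured, and 0 met the rule. Against the vehicle 6 were at least 1.5-fold lower and 1 higher, beside 8.42% and 6.48% of all genes. NDRG1, a substrate of SGK1, stood at −1.26 and SCNN1B, a subunit of the epithelial sodium channel, at −1.39, but ERα17p minus vehicle was −1.23 and −1.17 for these genes, and estradiol minus ERα17p −0.035 and −0.22. NEDD4, a ubiquitin ligase, stood at 0.74 against the vehicle and −0.24 against ERα17p. Of 14 glucocorticoid-induced genes and steroid receptors 13 were measured, with 0 at least 1.5-fold higher and 2 lower than on the vehicle array. DUSP1, a phosphatase of MAP kinases, stood at −0.82 ± 0.96 (SD, n = 3 probe sets) and MT2A, a metal-binding protein, at −0.69 (1 probe set). TSC22D3, another glucocorticoid target, stood at −0.45 ± 0.80 (SD, n = 3), the SDs of DUSP1 and TSC22D3 being larger than their differences. In ERα17p minus vehicle DUSP1, MT2A and TSC22D3 stood at −0.76, −0.78 and −0.19. In estradiol minus ERα17p they stood at −0.060, 0.087 and −0.26. NR3C2, the mineralocorticoid receptor, stood at 0.17 against the vehicle and −0.41 against ERα17p.

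PLK2, the polo-like kinase, had 1 probe set, at −0.83 on the estradiol array, 0.26 on the ERα17p array and 0.34 on the vehicle array. Its value on the estradiol array was the 6th lowest there, and the ERα17p and vehicle values lay side by side. Estradiol minus vehicle was −1.17, a 2.26-fold lower signal, estradiol minus ERα17p −1.10, 2.14-fold lower, and ERα17p minus vehicle −0.079, or 0.20 with arrays scaled to a common SD. All 4 other polo-like kinases were measured and 0 met the rule. PLK1, which drives mitosis, and PLK4, which drives centriole duplication, stood at 0.67 (1 probe set) and 0.65 ± 0.41 (SD, n = 3 probe sets) against the vehicle and at 0.20 and −0.17 against ERα17p. PLK3 and PLK5 stood at −0.20 and −0.34, and at −0.21 and −0.22 against ERα17p.

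KCTD6, the CUL3 adaptor, had 2 probe sets, and they disagreed on ERα17p. The probe set 238001_at stood at 1.24 on the estradiol array, 0.048 on the ERα17p array and −1.13 on the vehicle array. The probe set 238077_at stood at 1.07 on the estradiol array, −0.34 on the ERα17p array and −0.41 on the vehicle array. Estradiol was highest in both, but ERα17p minus vehicle was 1.17 in the first and 0.069 in the second. Over the 2 probe sets the differences were 1.92 ± 0.63 (SD, n = 2 probe sets) for estradiol minus vehicle, 1.30 ± 0.15 for estradiol minus ERα17p and 0.62 ± 0.78 for ERα17p minus vehicle. The spread over probe sets therefore exceeded the difference of the ERα17p array from the vehicle. Over the 10523 genes with several probe sets the median of this SD was 0.29 for estradiol minus vehicle, 0.16 for estradiol minus ERα17p and 0.28 for ERα17p minus vehicle.

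Of 28 KCTD genes, CUL3 and linked genes 23 were measured, and 0 met the rule. Against the vehicle 1 was at least 1.5-fold higher and 2 lower, beside 6.48% and 8.42% of all genes. Against ERα17p 0 were 1.5-fold different, beside 1.13% of all genes. KCTD9 stood at 0.88 (1 probe set) and KCTD2 at −1.21 ± 0.27 (SD, n = 2 probe sets) against the vehicle, and at −0.17 and 0.078 against ERα17p. KCTD13, an adaptor of CUL3, stood at −0.66 ± 0.19 (SD, n = 2) against the vehicle and 0.20 ± 0.23 against ERα17p.

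RBM24, the RNA-binding protein, had 1 probe set, at 0.93 on the estradiol array, −0.65 on the ERα17p array and −0.72 on the vehicle array. The estradiol value was the 12th highest of its array, with the other arrays at similar values below the baseline. Estradiol minus vehicle was 1.65, a 3.15-fold higher signal, estradiol minus ERα17p 1.58, 2.99-fold, and ERα17p minus vehicle 0.074, or −0.56 with arrays scaled to a common SD. Of 43 other splicing and RNA-binding regulators 41 were measured, and 0 met the rule. Against the vehicle 7 were at least 1.5-fold higher and 4 lower, beside 6.48% and 8.42% of all genes. MBNL1, a splicing factor, stood at 1.18 ± 1.28 (SD, n = 7 probe sets), RBM10 at −1.30 ± 0.14 (SD, n = 3) and RBM42 at −1.12 (1 probe set). The MBNL1 probe sets spread more widely than their mean difference. Against ERα17p these stood at 0.025, −0.085 and 0.00077, and 0 of the list were 1.5-fold different, beside 1.13% of all genes. The members with the largest absolute differences from ERα17p were RBM14 at 0.51, RBM41 at −0.48 and RBM11 at −0.40.

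ZSWIM6 had 1 probe set, at 0.85 on the estradiol array, −0.18 on the ERα17p array and −0.71 on the vehicle array. The 3 arrays were spread out, with ERα17p between the others. Estradiol minus vehicle was 1.55, a 2.93-fold higher signal, estradiol minus ERα17p 1.03, 2.04-fold, and ERα17p minus vehicle 0.52, 1.44-fold. Counting from the vehicle value to the estradiol value, the ERα17p value had covered 33.7% of the way for ZSWIM6 and 32.3% for KCTD6, against 4.45% for RBM24, 6.73% for PLK2 and −20.9% for RASGRP1. These positions depended on the scaling, which changes the distance from the baseline by a different amount on each array. With arrays scaled to a common SD, ERα17p minus vehicle was 0.13 for ZSWIM6, 0.22 for KCTD6, −0.56 for RBM24 and 0.20 for PLK2, and with quantile normalization 0.17, 0.20, −0.66 and 0.20. All 10 listed ZSWIM family and CUL2 complex genes were measured, and 0 met the rule. Against the vehicle 0 were at least 1.5-fold higher and 2 lower, beside 6.48% and 8.42% of all genes. The 2, ZSWIM3 and ZSWIM5, stood at −0.69 and −0.59 against the vehicle and at −0.11 and −0.20 against ERα17p.

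Across the 11 lists, 208 of 227 genes were measured, and 0 met the rule that chose the 8 genes, beside 0.0607% of all genes. Their median was 0.0074 in estradiol minus vehicle and −0.0037 in estradiol minus ERα17p. At least 1.5-fold different from the vehicle were 38 genes, 16 higher and 22 lower, or 18.3% beside 14.9% of all genes. From ERα17p 1 gene was 1.5-fold different, ADCY4, or 0.481% beside 1.13% of all genes.

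**Figure D4:**
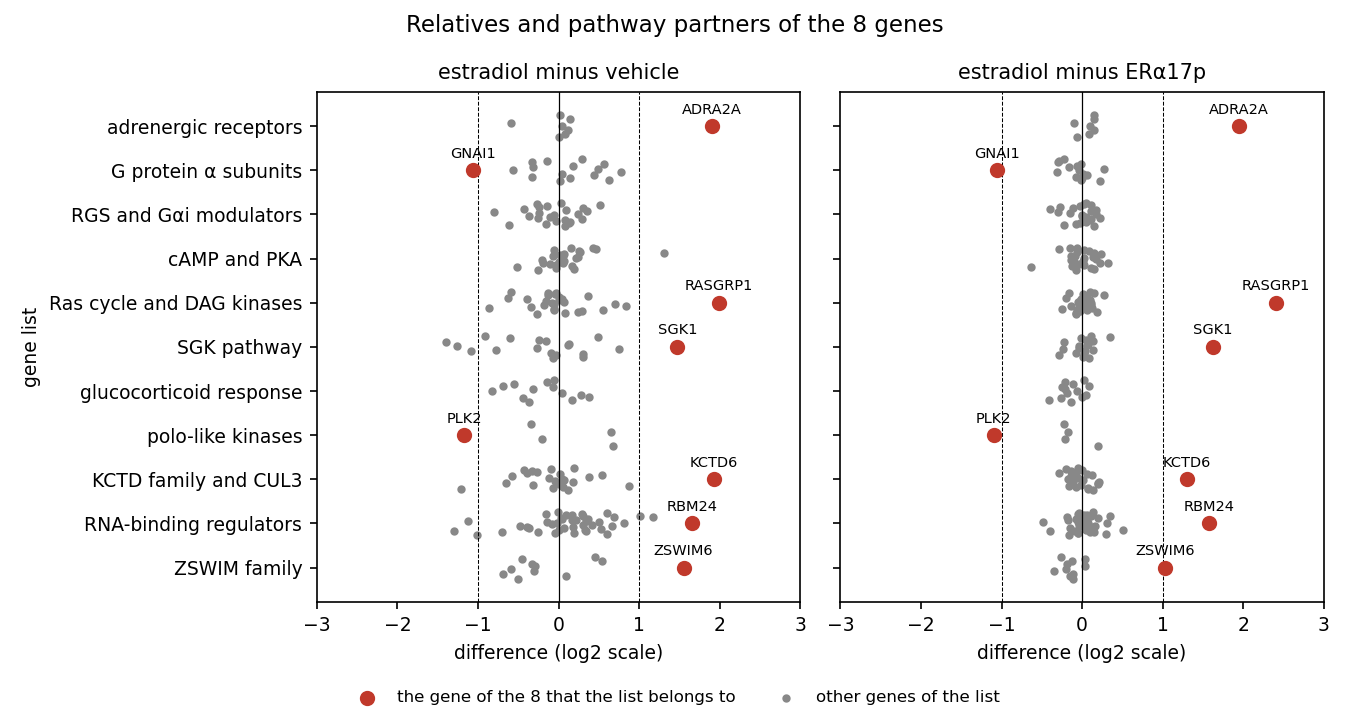
Differences on the log2 scale of genes in the 11 lists (grey points), for estradiol minus vehicle on the left and estradiol minus ERα17p on the right, with each of the 8 genes (red) in the row of its own list. Dashed lines mark 2-fold. All red points lie past a dashed line in both panels, while grey points reach from −1.39 to 1.31 on the left and from −0.64 to 0.51 on the right.

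Likeness of pattern was measured as the Euclidean distance between the 3 array values of genes after each gene's mean was removed. Since the 8 genes were selected for this pattern, the distances are a description. PLK2 and GNAI1 lay 0.081 apart and each had DUSP6, a phosphatase of ERK, as its next gene, at 0.157 from PLK2 and 0.120 from GNAI1. DUSP6 stood at −1.01 in estradiol minus vehicle and −0.89 in estradiol minus ERα17p. SGK1 and RBM24 were nearest to each other, at 0.170, followed for both by ADRA2A. KCTD6 and ZSWIM6 lay 0.272 apart, with the KCTD6 mean taken over its 2 disagreeing probe sets, and MYC lay 0.283 from KCTD6 and 0.302 from ADRA2A. ZSWIM6 was nearest to UGCG, an enzyme of glycosphingolipid synthesis, at 0.058, and then to MIF-AS1, an antisense RNA, at 0.186. Within a distance of 0.5 there was 1 gene for RASGRP1, its nearest gene ADRA2A at 0.342, and there were 147 genes for GNAI1.

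The limit of the rule fell close to several genes. Just inside it among the higher genes were ZSWIM6, whose smaller difference was 1.03, CXCL12 at 1.30 and KCTD6 at 1.30. Just outside were UGCG at 0.97, NRIP1, a corepressor of the receptor, at 0.89 and SIAH2, a ubiquitin ligase, at 0.89. Among the lower genes GNAI1 was just inside at −1.05, then PLK2 at −1.10 and AMIGO2 at −1.44, and SHISA2 at −0.92, COX3 at −0.91 and SLITRK6 at −0.91 were just outside. ZSWIM6 and UGCG thus had nearly the same differences, at 1.55 and 1.47 from the vehicle and 1.03 and 0.97 from ERα17p, on either side of the limit.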

How the data were processed

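Biotin-labelled total RNA of T47D cells was hybridised to 1 array per group. The deposited log2 expression values came from RMA, version not given in the sources used here, as the submitters' processing notes name it. The log2 scale was inferred from that method. The values lie around 0, so a baseline had been taken from each probe set by a step whose details were not found, and differences hold only if 1 baseline served all arrays. Of 54675 probe sets, 62 were controls, 41091 had 1 gene symbol in the platform annotation, 1801 several and 11721 none, and only the single-gene ones were used. A gene's value is the mean over its probe sets, for 19775 genes. All 8 members matched RefSeq by gene number.

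The members and the lists were chosen with earlier results of these data known. Named genes were the members, list genes with the 3 largest absolute differences from the vehicle or from ERα17p (some of these are left unnamed), the 2 nearest genes of each member and the 3 genes on each side of the limit. No proteins are shown. The gene computation and the motif search were tested on simulated data. Alternatives were other thresholds, scalings and ways to join probe sets. Python 3.11.15, numpy 2.4.6, pandas 2.3.3 and matplotlib 3.10.9 were used.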

Additional observations from a re-analysis of the deposited data

How the results depend on the processing

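At 2-fold, all 8 genes differed from the vehicle array and from the ERα17p array under the centred, SD-scaled and quantile-normalized differences. They also did so under the median of probe sets, without probe sets ending in _x_at or _s_at, and with the probe set of largest difference. The settings of the last sentence could not lose a gene. No probe set of the 8 genes has such an ending, the median of 1 or 2 probe sets is their mean, and the largest difference is never smaller than the mean. Centring could not either, since the medians taken off were only −0.0043 and −0.0062, and the smallest difference was 1.03. SD scaling enlarged the estradiol and ERα17p values, whose SDs were 0.158 and 0.166 beside 0.434 for vehicle. These values had opposite signs in all 8 genes, so estradiol minus ERα17p had to grow, as from −1.05 to −1.64 for GNAI1. Under quantile normalization it grew as well, to −1.86 for GNAI1. With the probe set of smallest difference 7 of the 8 genes differed 2-fold in each comparison, and GNAI1 was lost. At 1.5-fold, which is below the limit that chose them, all 8 passed, 1 gene, KCTD6, differed in ERα17p minus vehicle, and 78 genes met the rule. At 3-fold 4 of the 8 passed against the vehicle, 3 against ERα17p and 2 probe sets against both, and 4 genes met the rule. The 12 genes that met the rule became 44 with arrays scaled to a common SD, 66 with quantile normalization and 32 with the probe set of largest difference. The count of 0 genes 2-fold different in ERα17p minus vehicle became 2 (ADRA2A and RASGRP1) with either scaling and 1 with the probe set of largest difference (KCTD6). Both scalings stretch the ERα17p values relative to the vehicle values, and ADRA2A and RASGRP1 lay below the baseline on both arrays. Why the arrays differ in spread was not tested. Of 168 single differences recomputed, 133 moved by no more than the spread over probe sets (for genes with 1 probe set, its median over genes), 35 moved further, and 0 changed sign among those past 2-fold. All 35 came from SD scaling or quantile normalization. Many of the 133 could not move, so their count does not measure stability. The median and the probe set endings changed nothing for the 8 genes, and the choice of probe set nothing for the 6 with 1 probe set. No paired analysis was possible because each group has 1 array, and signal over background is unknown.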
